A study of Mus musculus with 9 samples.

Results

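The 10 genes described here encode the core of the G1 phase machinery of the cell cycle in mouse CD8+ T cells. They are the D cyclins Ccnd2 and Ccnd3, the E cyclins Ccne1 and Ccne2, the kinases Cdk2, Cdk4 and Cdk6, and the inhibitors Cdkn1b, Cdkn2c and Cdkn2d. They were chosen by name but with earlier results of these data known, so their share of called genes is a description. All 10 were found among the 20618 genes measured. RNA was sequenced from primary wild-type CD8+ T cells, the cytotoxic lymphocytes of adaptive immunity, that had been kept for 24 h in 2 mM glucose, in 2 mM inosine, or in 2 mM inosine with added hypoxanthine. Hypoxanthine is a purine base, and inosine is the same base joined to ribose. The medium with both is called the hypoxanthine medium below. Its hypoxanthine dose reads 100 M in the labels, where the prefix of the unit seems to be missing. All media contained 10% dialyzed serum, and the live cells, about 80%, were sorted before RNA was taken. The labels give no activation state, age or number of animals. Each medium had 3 libraries, named 1 to 3 in the labels, and all 9 carried the same batch label. The labels do not say whether libraries of the same medium had different animals or cultures as their source. P-values therefore measure only how far these samples differ from each other, and that spread may be technical.

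D cyclins bind Cdk4 and Cdk6 in early G1, and E cyclins bind Cdk2 later. Both kinds of complex phosphorylate the retinoblastoma protein, which then releases E2F factors to switch on the genes of DNA replication. The INK4 inhibitors (Cdkn2c, encoding p18, and Cdkn2d, encoding p19) bind Cdk4 and Cdk6 alone, whereas p27, the product of Cdkn1b, binds whole cyclin and kinase complexes, and in T cells its loss is part of the exit from quiescence.

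Levels are given as FPKM, read fragments corrected for the length of the gene and the size of the library, which allows levels of different genes to be set side by side. Differences between media are on the scale log2(FPKM + 1), which understates the change of low genes, and a gene was called changed at a limma adjusted p under 0.05, with the adjustment made over all 20618 genes. Reads per library, recovered from the authors' deposited group means, ran from 30701075 to 49848993. Among markers of the labelled cell type, 7 of 9 were in the tables, and their summed level was 743 to 783 FPKM in glucose, 687 to 871 in inosine and 1240 to 1310 with hypoxanthine. Of other cell types, the sums of B cell markers reached at most 1.84 FPKM in a library and those of CD4 and regulatory T cell markers 6.74, and no marker was at 0 in all 9. Macrophage and monocyte markers, all 6 under 1 FPKM on average, summed to 0.352 to 0.56 FPKM in glucose, 0.479 to 0.695 in inosine and 0.159 to 0.217 with hypoxanthine. The 3 dendritic cell markers measured, all under 1 FPKM on average, summed to 0.298 to 2.83, 0.295 to 0.61 and 1.37 to 2.54 FPKM. Summed NK cell markers moved with the CD8 T cell markers, from 219 to 258 FPKM without hypoxanthine to 378 to 384 with it, most of it from Nkg7, which cytotoxic T cells also express. The part of these shifts in the results below was not tested. In bulk RNA, fewer cells of a type and less RNA per cell cannot be told apart.

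The sequences next to the start sites show what regulatory letters the windows of these genes hold. RefSeq windows on GRCm38.p6, the assembly also called mm10, matched 8 of the 10 genes, and the 250 bases before each start were searched on both strands for 3 short motifs. These were TTCCCGC or TTGGCGC, letters of the E2F site, CACGTG, the E-box bound by Myc and its partners, and TGTTTAC, letters of the site bound by FOXO factors. Cdkn2c, Ccne1 and Ccnd3 are printed because their RNA changed with hypoxanthine, and Cdk4 because it held the most motif matches. Capitals mark the matches, and all 4 windows run 5′ to 3′ on the strand of the gene.
Cdkn2c, start 1, chr4:109666757-109667006, minus strand: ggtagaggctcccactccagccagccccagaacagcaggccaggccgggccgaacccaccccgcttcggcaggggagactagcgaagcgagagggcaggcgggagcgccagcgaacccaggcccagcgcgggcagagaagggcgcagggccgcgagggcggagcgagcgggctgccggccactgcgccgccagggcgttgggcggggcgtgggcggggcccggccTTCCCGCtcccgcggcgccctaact
Ccne1, chr7:38107491-38107740, minus strand: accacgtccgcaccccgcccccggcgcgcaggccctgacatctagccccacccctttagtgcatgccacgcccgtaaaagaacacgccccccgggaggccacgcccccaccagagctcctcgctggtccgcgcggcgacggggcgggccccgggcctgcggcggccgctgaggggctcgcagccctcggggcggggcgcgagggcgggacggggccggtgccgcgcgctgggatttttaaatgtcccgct
Ccnd3, start 1, chr17:47504801-47505050, plus strand: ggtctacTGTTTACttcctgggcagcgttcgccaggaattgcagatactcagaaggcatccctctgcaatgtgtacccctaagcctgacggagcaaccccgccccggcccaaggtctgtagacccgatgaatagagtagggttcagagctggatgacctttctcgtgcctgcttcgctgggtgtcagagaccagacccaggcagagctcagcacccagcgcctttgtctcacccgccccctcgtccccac
Cdk4, chr10:127063285-127063534, plus strand: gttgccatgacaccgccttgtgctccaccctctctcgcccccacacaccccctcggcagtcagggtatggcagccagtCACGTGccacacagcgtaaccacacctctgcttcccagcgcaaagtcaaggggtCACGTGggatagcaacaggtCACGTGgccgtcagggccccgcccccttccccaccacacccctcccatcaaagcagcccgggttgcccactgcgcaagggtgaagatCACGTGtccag

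The Cdkn2c window held 1 E2F match, beginning at position -25, counted from the start. The Cdk2 window held 2 such matches, at positions -140 and -10, both as GCGGGAA on the strand of the gene. The Cdk4 window held 4 E-boxes, at positions -172, -118, -98 and -11, and the Cdk6 window held 1, at -220. The upstream Ccnd3 window held 1 FOXO match, at position -243. No match overlapped another. The windows of Ccne1, Cdkn1b and Cdkn2d, and those of the downstream starts of Ccnd3 and Cdkn2c, held none of these letters. Over all 32851 RefSeq windows of the same length, 5.62% held the E2F letters, 6.02% the E-box and 3.17% the FOXO letters. A match of letters is a description and not a bound site.

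Over all 9 libraries the genes spanned a wide range of levels. Cdk4 was highest, with a mean of 167.7 FPKM, followed by Ccnd3 (83.2 FPKM), Ccnd2 (55.6 FPKM), Cdkn2d (52.4 FPKM) and Ccne1 (39.2 FPKM). Cdk2 (26.3 FPKM), Cdk6 (21.4 FPKM), Cdkn1b (14.6 FPKM), Ccne2 (10.6 FPKM) and Cdkn2c (9.90 FPKM) were lower. The libraries of Cdk4 lay apart from those of Ccnd3, as did those of Cdkn2d from Ccne1, Ccne1 from Cdk2, and Cdk6 from Cdkn1b. The ranges of the other neighbours overlapped, but Cdk2 was above Cdk6 in 9 of 9 libraries. The other overlapping neighbours changed places between libraries, with Ccnd3 above Ccnd2 in 6 of 9, Ccnd2 above Cdkn2d in 4, Cdkn1b above Ccne2 in 7 and Ccne2 above Cdkn2c in 5. In each library of the hypoxanthine medium Ccnd2 lay above Ccnd3, and in each of the 6 others below it.

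**Figure D1:**
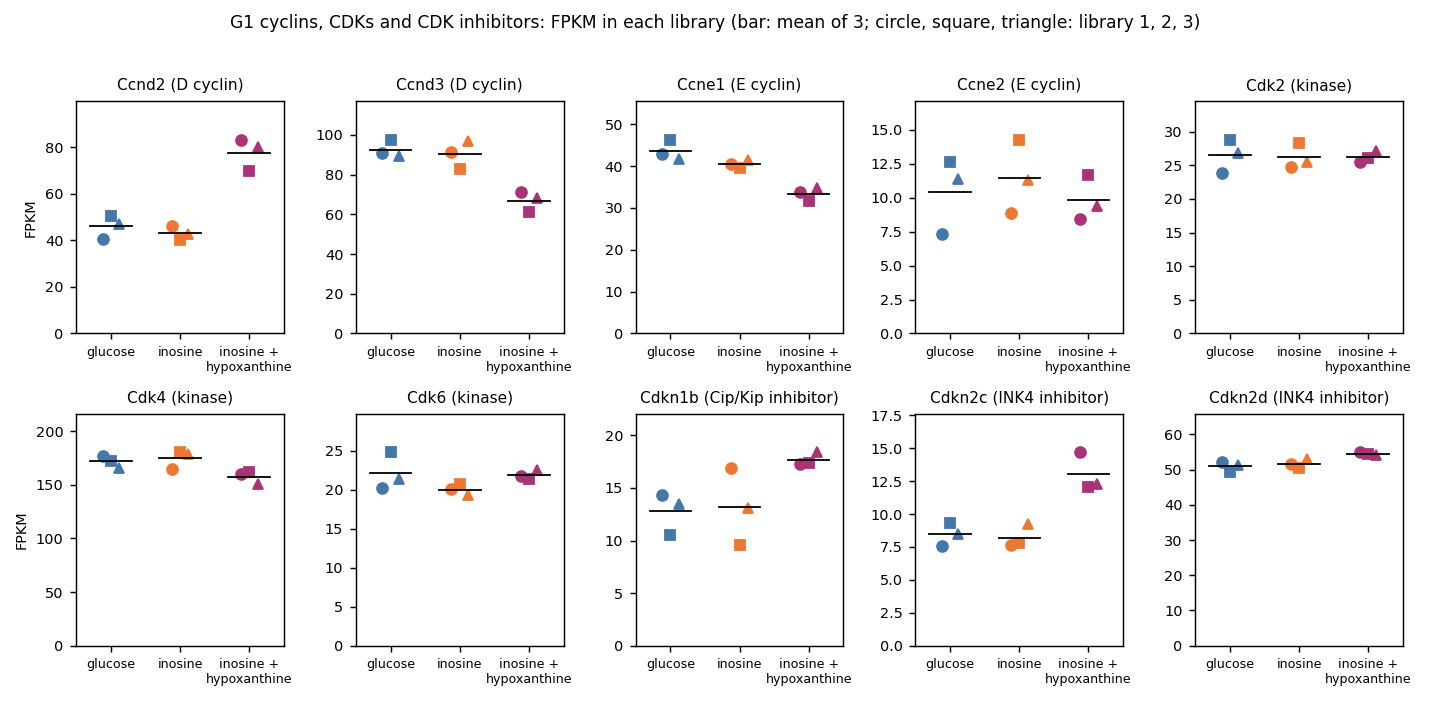
FPKM (vertical axes, from 0) of the 10 genes in each of the 9 libraries by medium (horizontal axes), with a bar at the mean of 3 libraries and circle, square and triangle for libraries 1, 2 and 3. Ccnd2 and Cdkn2c are higher and Ccnd3 and Ccne1 lower in all 3 hypoxanthine libraries than in the other 6, and Cdk2 lies between 23.9 and 28.8 FPKM throughout.

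The main comparison set the hypoxanthine medium against inosine alone, so that the media differed by the free base. With hypoxanthine, Ccnd2 and Cdkn2c rose and Ccnd3 and Ccne1 fell, which is 4 of 10 genes called, 2 in each direction. Over all genes tested, 21.3% were called in this comparison, 11.7% higher and 9.59% lower, and among the 9947 genes averaging 1 FPKM or more, as all 10 genes do, 32.9% were called. The kinases Cdk2, Cdk4 and Cdk6, the E cyclin Ccne2 and the inhibitors Cdkn1b and Cdkn2d were not called. The libraries of the compared media did not overlap for 8 of the 10 genes, against 49.3% of genes averaging 1 FPKM or more. The called share, 40.0%, is near the 32.9% of genes averaging 1 FPKM or more, while the share without overlap lies above its background. For 10 chosen genes neither was tested.

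Ccnd2, which encodes cyclin D2, the D cyclin that is induced by mitogens and cytokines in lymphocytes, lies at chr6:127125162-127152188 on the minus strand. Its level was 40.7, 50.5 and 47.1 FPKM in glucose, 46.1, 40.1 and 42.7 in inosine, and 83.1, 69.8 and 80.1 FPKM with hypoxanthine. All 3 hypoxanthine libraries were well above the other 6, whose glucose and inosine values overlapped. Against inosine the difference was 0.84 ± 0.10 (SE) on the log2 scale, with a 95% interval of 0.61 to 1.07 (limma adjusted p = 0.000769), or 1.81 times the inosine mean. By size, this difference was number 441 among the 9947 genes averaging 1 FPKM or more, within the top 4.43%. Ccnd2 rested on 9979 to 28588 reads per library.

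Ccnd3 encodes cyclin D3, the D cyclin that thymocytes need to expand, and lies at chr17:47505051-47599689 on the plus strand. Its level was 90.8, 97.4 and 89.6 FPKM in glucose, 91.2, 82.7 and 96.8 in inosine, and 71.4, 61.0 and 68.0 FPKM with hypoxanthine. Here the hypoxanthine libraries were the 3 lowest, opposite to Ccnd2. Ccnd3 fell by 0.43 ± 0.084 (SE) on the log2 scale against inosine, with a 95% interval of -0.62 to -0.24 (limma adjusted p = 0.0076), so that the inosine mean was 1.35 times the hypoxanthine mean. Of its exon bases, 14.8% also belong to Bysl, a ribosome assembly gene on the opposite strand. The strand of the libraries is not stated, so reads from these 361 bases cannot be told apart. Bysl itself had a mean of 16.4 FPKM and a log2 difference of -0.41 against inosine (limma adjusted p = 0.0929), and it fell against glucose, with a log2 difference of -0.60 (limma adjusted p = 0.0225).

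The D cyclin genes moved in opposite directions, so the makeup of their summed level differed between media, while a change of the sum itself was not tested. Ccnd1, the D cyclin of most other tissues, was under 1 FPKM in every library, at 0.44 ± 0.040 FPKM in glucose, 0.55 ± 0.18 in inosine and 0.11 ± 0.036 with hypoxanthine (SD, n = 3 each). The sum of Ccnd1, Ccnd2 and Ccnd3 was 139 ± 8.41 FPKM in glucose, 134 ± 9.22 in inosine and 145 ± 12.3 with hypoxanthine (SD, n = 3 each), and the libraries of all 3 media overlapped. Ccnd2 made up 30.8%, 34.1% and 34.3% of that sum in the glucose libraries and 33.4%, 32.6% and 30.5% in the inosine libraries. With hypoxanthine it made up 53.7%, 53.3% and 54.0%. Ccnd3 was thus the leading D cyclin transcript in the 6 libraries without hypoxanthine, and Ccnd2 in the 3 with it.

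**Figure D2:**
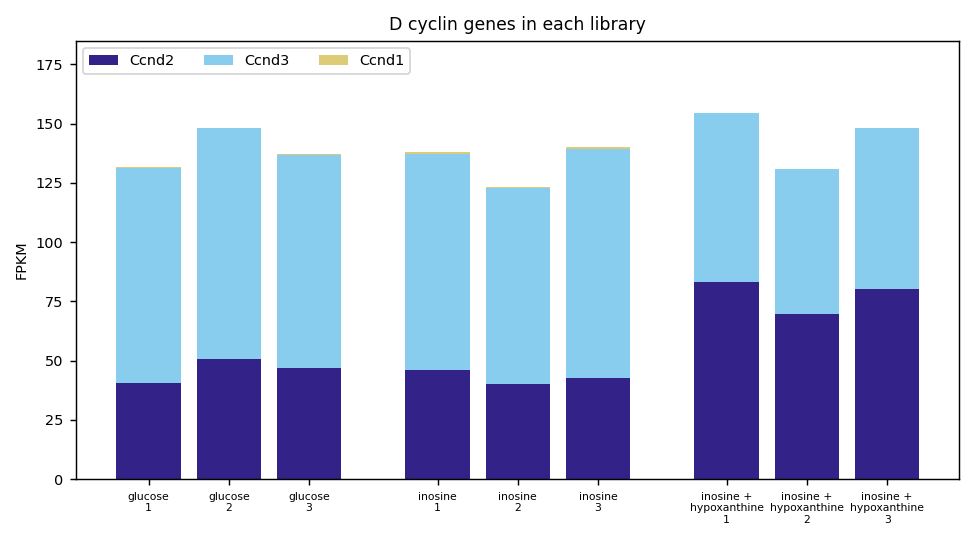
Stacked bars of the FPKM of Ccnd2, Ccnd3 and Ccnd1 (vertical axis) in each of the 9 libraries (horizontal axis, grouped by medium). The bar heights overlap between media, from 123.2 to 154.7 FPKM, while the Ccnd2 part is 53.3% to 54.0% with hypoxanthine and 30.5% to 34.3% in the other libraries.

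The E cyclins, the partners of Cdk2 at the G1 to S boundary, differed from each other. Ccne1, at chr7:38097984-38107490 on the minus strand, had levels of 42.8, 46.3 and 41.7 FPKM in glucose, 40.6, 39.7 and 41.6 in inosine, and 33.9, 31.7 and 34.7 FPKM with hypoxanthine. No hypoxanthine library reached the lowest of the other 6. Ccne1 fell by 0.27 ± 0.065 (SE) on the log2 scale against inosine, with a 95% interval of -0.42 to -0.13 (limma adjusted p = 0.0174). The inosine mean was 1.21 times the hypoxanthine mean, the smallest of the 4 called differences. This call did not hold without inosine library 3 (limma adjusted p = 0.0629) or without hypoxanthine library 2 (limma adjusted p = 0.0513), and the log2 differences were then -0.26 and -0.24.

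Ccne2, at chr4:11190433-11204779 on the plus strand, varied more between the libraries of a medium than between media. It was at 7.36, 12.6 and 11.4 FPKM in glucose, 8.88, 14.3 and 11.3 in inosine, and 8.44, 11.7 and 9.40 FPKM with hypoxanthine. The log2 difference from inosine was -0.19, and its 95% interval of -0.68 to 0.29 includes a fall as large as that of Ccnd3 (limma adjusted p = 0.593). Ccne2 shares 10.5% of its exon bases with Ints8 on the opposite strand, a subunit of the Integrator complex, and Ints8 fell, with a log2 difference of -0.38 (limma adjusted p = 0.0262). The summed E cyclin level was 54.0 ± 4.44 FPKM in glucose, 52.1 ± 2.34 in inosine and 43.3 ± 0.868 with hypoxanthine (SD, n = 3 each), and Ccne2 made up 19.2%, 21.9% and 22.7% of it on average.

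The kinases were not called in any comparison. Cdk4, the kinase partner of the D cyclins and the highest of the 10 genes, lies at chr10:127063535-127067288 on the plus strand. It was at 177, 172 and 166 FPKM in glucose, 165, 180.2 and 179 in inosine, and 159.7, 162 and 150.2 FPKM with hypoxanthine. All 3 hypoxanthine libraries were below the other 6, but the log2 difference from inosine was -0.15 with a 95% interval of -0.30 to 0.00 (limma adjusted p = 0.154). Cdk4 shares 31.2% of its exon bases with Tspan31 on the opposite strand, whose reads cannot be told apart there. Tspan31 had a mean of 48.7 FPKM and a log2 difference of -0.05 from inosine (limma adjusted p = 0.683).

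Cdk6, the other D cyclin kinase, at chr5:3341004-3531008 on the plus strand, was at 20.2, 24.8 and 21.3 FPKM in glucose, 20.1, 20.7 and 19.3 in inosine, and 21.8, 21.4 and 22.5 FPKM with hypoxanthine. The hypoxanthine libraries were just above the inosine libraries and lay within the range of the glucose libraries. Against inosine its log2 difference was 0.12, with a 95% interval of -0.06 to 0.30 (limma adjusted p = 0.349). Cdk6 gave 10.3% of the summed Cdk4 and Cdk6 level in inosine, 11.4% in glucose and 12.2% with hypoxanthine.

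Cdk2, the E cyclin kinase, at chr10:128697938-128705051 on the minus strand, was the most even of the kinases between media. It was at 23.9, 28.8 and 26.8 FPKM in glucose, 24.8, 28.4 and 25.5 in inosine, and 25.6, 26.1 and 27.1 FPKM with hypoxanthine. The libraries of all 3 media overlapped. The 95% interval of its log2 difference from inosine, -0.18 to 0.19, leaves room for a change of either sign.

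Among the inhibitors, Cdkn2c changed most. It encodes p18, which binds Cdk6 and Cdk4 and restrains lymphocyte division, and lies at chr4:109660876-109666756 on the minus strand, with the E2F letters printed above next to its upstream start. Its level was 7.58, 9.32 and 8.49 FPKM in glucose, 7.64, 7.77 and 9.22 in inosine, and 14.7, 12.1 and 12.3 FPKM with hypoxanthine. Each hypoxanthine library exceeded all 6 others. The log2 difference from inosine was 0.605 ± 0.11 (SE), with a 95% interval of 0.36 to 0.85 (limma adjusted p = 0.00445), or 1.59 times the inosine mean, although the gene rested on only 599 to 1687 reads per library. In size it was number 962 of the 9947 genes averaging 1 FPKM or more.

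Cdkn2d, which encodes p19, another INK4 inhibitor, lies at chr9:21288459-21291421 on the minus strand and was the steadiest of the 10 genes. It was at 52.2, 49.4 and 51.2 FPKM in glucose, 51.5, 50.6 and 53.1 in inosine, and 55.0, 54.4 and 54.3 FPKM with hypoxanthine, so that its highest library was 1.11 times its lowest. The hypoxanthine libraries were the highest but by a small margin, with a log2 difference from inosine of 0.075 and a 95% interval of -0.05 to 0.20 (limma adjusted p = 0.402). Of the summed Cdkn2c and Cdkn2d level, Cdkn2c made up 14.2% ± 1.6 in glucose, 13.7% ± 0.993 in inosine and 19.2% ± 1.63 with hypoxanthine (SD, n = 3 each).

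Cdkn1b, at chr6:134920401-134925525 on the plus strand, was at 14.4, 10.6 and 13.4 FPKM in glucose, 16.9, 9.57 and 13.1 in inosine, and 17.3, 17.4 and 18.4 FPKM with hypoxanthine. The hypoxanthine libraries were close together and above all others, while the inosine libraries were spread and inosine library 1 almost reached them. The log2 difference from inosine was 0.43 ± 0.18 (SE), as large as that of Ccnd3 in size, but with a 95% interval of 0.03 to 0.84 it was not called (limma adjusted p = 0.128). Over the other settings tried, the adjusted p ran from 0.0259 to 0.378 and fell under the threshold in 1 of 18, when inosine library 1 was left out (limma adjusted p = 0.0259, log2 difference 0.62).

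**Figure D3:**
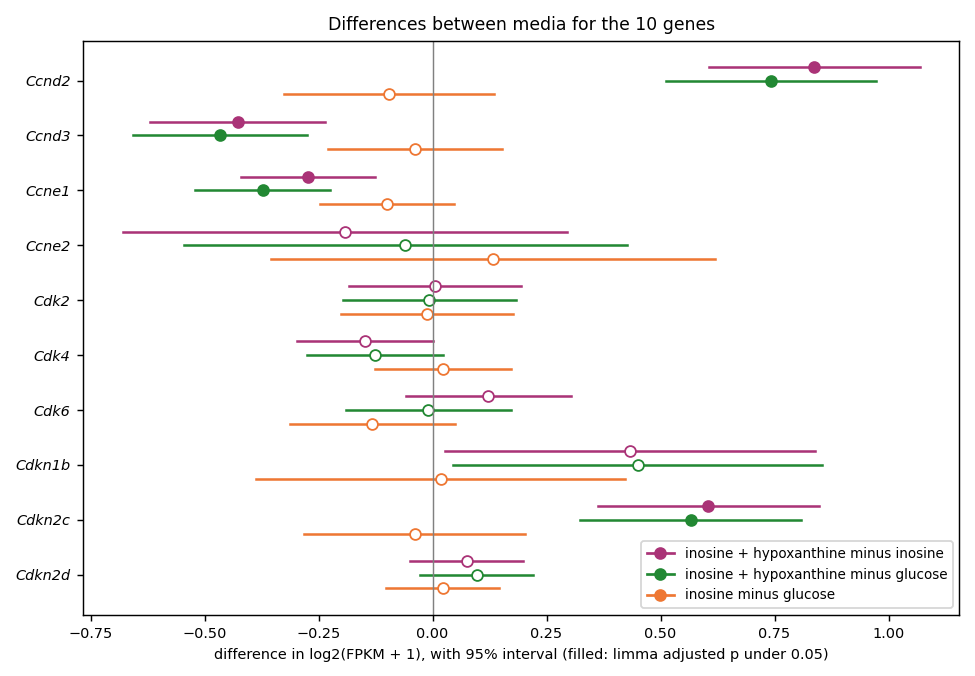
Difference in log2(FPKM + 1) between media (horizontal axis) for each of the 10 genes (vertical axis), with 95% intervals from limma and filled circles where the adjusted p was under 0.05. In both comparisons with hypoxanthine, Ccnd2 (0.84 and 0.74) and Cdkn2c (0.605 and 0.57) lie above 0, Ccnd3 (-0.43 and -0.47) and Ccne1 (-0.27 and -0.37) lie below it, and no circle of inosine against glucose is filled.

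The comparison of the hypoxanthine medium with glucose used the same hypoxanthine libraries, so its values are not independent of those above and are given beside them. Again 4 of the 10 genes were called, where 20.3% of all genes were called, 10.8% higher and 9.55% lower, and 30.9% of those averaging 1 FPKM or more. Each of the 4 was called in 17 of the 18 other settings, and the exception is given with the processing. Ccnd2 was higher by 0.74 on the log2 scale (95% interval 0.51 to 0.97, limma adjusted p = 0.0014) and Cdkn2c by 0.57 (0.32 to 0.81, limma adjusted p = 0.00643). Ccnd3 fell by 0.47 (interval -0.66 to -0.28, limma adjusted p = 0.0053) and Ccne1 by 0.37 (interval -0.52 to -0.23, limma adjusted p = 0.00439). As ratios of means, Ccnd2 was 1.68 times and Cdkn2c 1.54 times its glucose level, whereas the glucose mean was 1.39 times the hypoxanthine mean for Ccnd3 and 1.30 times for Ccne1. The libraries did not overlap for 7 of the 10 genes, against 55.0% of genes averaging 1 FPKM or more.

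Cdkn1b again missed the threshold, with a log2 difference of 0.45 from glucose (95% interval 0.05 to 0.86, limma adjusted p = 0.115), and was called in 4 of the 18 other settings, over which the adjusted p ran from 0.0357 to 0.301. In the authors' deposited table it had a log2 fold change of -0.442 for glucose over hypoxanthine with an adjusted p of 0.00181, and the authors' deposited table gave an adjusted p of 0.0938 against inosine. By the authors' deposited table, 5 of the 10 genes had an adjusted p under 0.05 against glucose, Cdkn1b and the 4 called here. Against inosine the authors' deposited table had 4, Ccnd2, Ccnd3, Ccne1 and Cdkn2c.

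Replacing glucose by inosine gave no call among the 10 genes, where limma called 2 of all 20618 genes, 0.0097%. At an unadjusted p under 0.05 there were 0 of the 10 and 584 of all genes. The log2 differences of inosine from glucose ran from -0.13 for Cdk6 to 0.13 for Ccne2. For Ccnd2 the difference was -0.10 with a 95% interval of -0.33 to 0.14, for Ccnd3 -0.04 (-0.23 to 0.15), for Ccne1 -0.10 (-0.25 to 0.05) and for Cdkn2c -0.04 (-0.28 to 0.20). For all 4 these intervals exclude differences as large as those seen with hypoxanthine, whereas the interval of Cdkn1b, -0.39 to 0.42, reaches nearly as far as its own difference with hypoxanthine. Of the 10 genes, Ccne1 was the sole gene whose inosine and glucose libraries did not overlap, against 5.13% of genes averaging 1 FPKM or more. In the test among the 3 media, which prefers no pair, 19.3% of all genes were called and the same 4 of the 10 genes passed, with limma adjusted p from 0.00116 for Ccnd2 to 0.00906 for Ccne1.

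Some of the spread within a medium went with the library number. Ccne2 was highest in library 2 of every medium and lowest in library 1. Cdkn1b was lowest in library 2 of glucose and inosine, but with hypoxanthine its libraries were within 17.3 to 18.4 FPKM. Within media, the SD on the log2 scale was 0.31 for Ccne2 and 0.38 for Cdkn1b in inosine, where the median over genes averaging 1 FPKM or more was 0.13, and for Cdkn1b it was 0.046 with hypoxanthine, where the median was 0.087. After removing each medium's mean, Ccne2 went with Cdk2 (Pearson r = 0.868 over 9 libraries) and against Cdkn1b (r = -0.789), and Ccnd3 went with Ccne1 (r = 0.814). These values describe 9 libraries that share a batch label and differ in depth, and no p is given. Inosine library 2 had the highest share of mitochondrial transcripts, 6.50% of FPKM, followed by hypoxanthine library 2 with 5.84%. The other 7 had 4.03% to 4.82%, and the lowest was glucose library 2. Without inosine library 2 and hypoxanthine library 2 the same 4 genes were called in both comparisons with hypoxanthine.

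**Figure D4:**
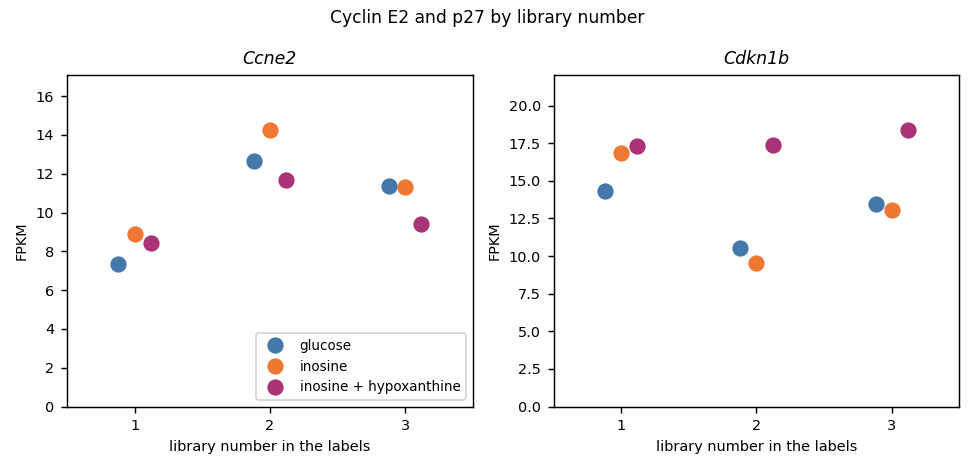
FPKM (vertical axes, from 0) of Ccne2 and Cdkn1b by library number (horizontal axes) and medium (colour). Ccne2 is highest in library 2 of each medium, up to 14.3 FPKM, and Cdkn1b is lowest in library 2 of glucose and inosine, down to 9.57 FPKM, while its hypoxanthine libraries lie between 17.3 and 18.4 FPKM.

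The genes whose levels were most like those of a member over the 9 libraries were searched among 6802 genes averaging 5 FPKM or more, for 1 or more members of each role. For Ccnd2 they were Etv6 (Pearson r = 0.9978), Ptger4 (0.9948) and Pank2 (0.994), which went from 4.73, 7.15 and 8.16 FPKM in inosine to 12.2, 13.5 and 13.0 FPKM with hypoxanthine. For Ccne1 they were Lrrc32 (0.991), Ap1m1 (0.9891) and Atpaf2 (0.9882). For Cdk6 they were Asf1b (0.9728), a histone chaperone, Top3b (0.9389) and Egr1 (0.930). Cdkn1b was followed most closely by Narf (0.9881), Ccng2 (0.9825), a cyclin linked to cell cycle arrest, and Tnfaip3 (0.9779), and Cdkn2c by Idh2 (0.9802), Tmco4 (0.9764) and Tapbpl (0.9753). These are the highest of many correlations over libraries that fall into groups, and are a description.

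The other genes of the pathway were described from lists chosen by name, also with earlier results of these data known. Of the 5 other G1 cyclins and inhibitors, 0 were higher and 2 lower with hypoxanthine than with inosine, and the median log2 difference was 0.04, against 0.02 for genes averaging 1 FPKM or more. These 2 are 40.0% of the list, beside 21.3% of all genes and 32.9% of those averaging 1 FPKM or more, and 1 of them, Ccnd1, is below that minimum. Cdkn1a, which encodes p21, the Cip/Kip relative of p27, had 170.5, 140.8 and 147 FPKM in glucose, 170.3, 122 and 140.2 in inosine, and 62.1, 57.8 and 59.7 with hypoxanthine. Cdkn1a fell, with a log2 difference of -1.24 (limma adjusted p = 0.000274), opposite in sign to the difference of Cdkn1b. The sum of Cdkn1a and Cdkn1b was 157 ± 28.0 FPKM in inosine and 77.6 ± 2.21 with hypoxanthine (SD, n = 3 each). Most of it was Cdkn1a in both media, with means of 144.2 and 59.88 FPKM. Ccnd1 fell by 0.47 (limma adjusted p = 0.00337) at under 1 FPKM. Cdkn2a, which encodes p16 and p19ARF, had a log2 difference of 0.41 and was not called (limma adjusted p = 0.410).

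Downstream of the kinases, 5 of the 13 pocket protein and E2F genes were higher and 0 lower with hypoxanthine than with inosine, with a median log2 difference of 0.12. That is 38.5% called, beside 32.9% of genes averaging 1 FPKM or more, and over the 18 other settings 2 to 6 were higher and 0 to 1 lower. The higher count was 2 without inosine library 3, hypoxanthine library 1 or hypoxanthine library 3. The lower count was 1 in 4 settings, including those without inosine library 2 or hypoxanthine library 2. Tfdp2, a partner of E2F factors, rose by 1.15 (limma adjusted p = 8.4e-05), E2f2 by 0.64 (limma adjusted p = 0.00088) and Rb1, the retinoblastoma gene itself, by 0.39 (limma adjusted p = 0.0174). E2f1 had a log2 difference of 0.11 and was not called (limma adjusted p = 0.531), and neither were the highest of the list, Tfdp1 (-0.12) and E2f4 (-0.32). Against glucose, 2 of the 13 were higher and 1 lower, 23.1% in all, beside 30.9% of genes averaging 1 FPKM or more. Rb1 was not called there.

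Among the 19 genes of CDK activation and protein turnover, 2 were higher and 4 lower, with a median of -0.06. That is 31.6% in all, beside 32.9% of genes averaging 1 FPKM or more. Over the other settings 1 to 3 were higher and 2 to 5 lower. The higher count changed in at least 5 settings, and was 1 without glucose library 3, inosine library 3, or hypoxanthine library 1 or 3. The lower count was 2 without inosine library 3, or hypoxanthine library 2 or 3. Pkmyt1, an inhibitory kinase of mitotic Cdk1, rose by 0.72 (limma adjusted p = 0.00326). Cdk7, the catalytic part of the CDK-activating kinase, fell by 0.34 (limma adjusted p = 0.0082), and Cdc37, a chaperone partner that loads Cdk4 and other kinases, fell by 0.32 (limma adjusted p = 0.0221). Cdc25a, the phosphatase that activates Cdk2, had a log2 difference of -0.17, and Skp2, which marks p27 for destruction, of -0.13, and neither was called. Kpna2, a nuclear import factor and a high member of the list, was not called either (-0.31, limma adjusted p = 0.0973). Against glucose, Cdc25a was called lower (-0.32, limma adjusted p = 0.0341), while Skp2 and Kpna2 were not called.

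Genes of S phase entry and of G2 and mitosis were called in both directions. Of the 34 S phase entry genes, 3 were higher and 4 lower, with a median of -0.04. That is 20.6% called, beside 32.9% of genes averaging 1 FPKM or more, and over the other settings 1 to 4 were higher and 1 to 8 lower. The higher count was 1 without hypoxanthine library 1 or 3. The lower count changed in at least 4 settings, among them 8 without inosine library 1 and 2 without inosine library 3. Gins4 rose by 0.39 (limma adjusted p = 0.00689), and Orc1 and Rrm2 fell by 0.48 and 0.39 (limma adjusted p = 0.00807 and 0.0143). Ccna2, the S phase cyclin, had a log2 difference of -0.03 and Pcna, the replication clamp, of -0.04, and neither was called. Of the 23 G2 and mitosis genes, 4 were higher and 2 lower, 26.1% in all, with a median of 0.03. Over the other settings 1 to 5 were higher and 1 to 2 lower. The higher count changed in at least 7 settings. It was 2 without glucose library 3, inosine library 1 or 3, or hypoxanthine library 1 or 2. Without hypoxanthine library 3 both counts were 1. Aurka fell by 0.36 (limma adjusted p = 0.00332) and Nusap1 rose by 0.47 (limma adjusted p = 0.00957). Mki67, the common marker of dividing cells, had a log2 difference of 0.18 (limma adjusted p = 0.376), and Top2a and Ube2c had 0.03 and 0.05.

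Of the 19 quiescence and upstream regulators, 8 were higher and 2 lower with hypoxanthine than with inosine, and the median log2 difference was 0.37. That is 52.6% called, beside 21.3% of all genes and 32.9% of those averaging 1 FPKM or more. Klf4 and Bcl6, both called higher, are below that minimum. Over the other settings 6 to 11 were higher and 0 to 3 lower. The lower count changed in at least 11 of the 18. Among these, it was 0 without glucose library 3, without inosine library 3, and without any 1 of the hypoxanthine libraries. It was 1 without inosine library 1 or 2. Slfn2, a gene that keeps T cells quiescent, went from 59.5 ± 9.28 to 145 ± 11.5 FPKM (SD, n = 3 each; limma adjusted p = 0.000187). Myc, a driver of growth and of D cyclin and Cdk4 genes, went from 62.7 ± 12.3 to 105 ± 15.0 FPKM (SD, n = 3 each; limma adjusted p = 0.00956). Mxd4, an antagonist of Myc, rose by 1.07 (limma adjusted p = 0.000958). The list joins genes of opposite roles, and its counts say nothing of a direction of the cell cycle. Against glucose 6 were higher and 3 lower, 47.4% in all, beside 20.3% of all genes and 30.9% of those averaging 1 FPKM or more. Klf4 was again among the higher ones. In the comparison of inosine with glucose 0 genes of the lists were called, beside 0.0097% of all genes.

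**Figure D5:**
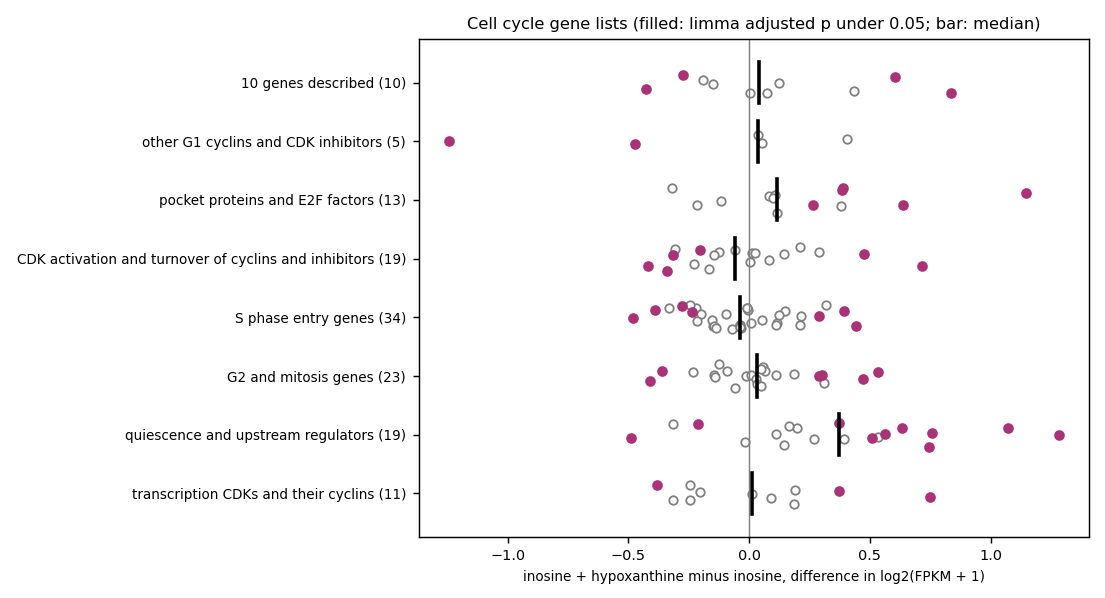
Difference in log2(FPKM + 1) between the hypoxanthine and inosine media (horizontal axis) for the 10 genes and for each gene list (vertical axis, number of genes in brackets), with filled points at a limma adjusted p under 0.05 and a bar at the median. The medians of the S phase entry genes (-0.04) and of the G2 and mitosis genes (0.03) lie near 0, and that of the quiescence and upstream regulators lies at 0.37.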

How the data were processed

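RNA of 9 libraries, 3 per medium, was measured as FPKM per gene, computed by the authors and deposited in tables of 20618 genes. The headers name the libraries but not the unit, which was taken from the values, since the ratio of value to recovered reads was constant for a gene after scaling (median SD 0.0034 on the log2 scale over 5280 well-covered genes), and from the paired-end reads. The authors' deposited tables also hold group mean signal values per gene, log2 fold changes, p-values and adjusted p-values. The submitters' processing notes name mm10, DESeq2 1.38.3, Subread 2.0.1, featureCounts and HISAT2, with no role for each, and the strand used in counting is not given in the sources used here. Groups were taken from the samples' labels. All comparisons came from a single limma fit (limma 3.58.1 under R 4.3.3, with its trend and robust options) to log2(FPKM + 1), with the medium as the only factor, 6 residual degrees of freedom, and Benjamini-Hochberg adjustment over 20618 genes. The design held a count model in case of count tables, which was not needed. Whole reads were recovered from the 2 group means that the authors deposited per medium, with a tolerance of 0.05, for 20585 genes (99.84%). The 33 others, Cdk12 among them, entered neither the read totals nor limma voom on those reads. The steps were tested on simulated data first.

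All 10 genes were described in every comparison. From each list, the 2 genes with the smallest adjusted p against inosine, the 2 with the highest mean and a few fixed genes were named where described. Cdkn2a, Nkg7, Klf4, Bcl6 and the genes that overlap a member were named after their values were seen. The members and lists were chosen with earlier results of these data known. Alternatives changed the pseudocount to 0.1, kept genes averaging 1 FPKM or more, rescaled by median of ratios, used limma voom, dropped the trend and robust options, added a replicate block, fitted 6 libraries, or left out libraries.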

Additional observations from a re-analysis of the deposited data

How the results depend on the processing

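Over 18 other settings in each comparison, no called difference of the 10 genes changed direction. Against inosine, Ccnd2, Ccnd3 and Cdkn2c were called in all 18, Ccne1 in 16 and Cdkn1b in 1. Leaving out 1 library at a time gave 3 to 5 of the 10 genes against inosine, 4 to 5 against glucose, 0 in inosine against glucose, and 4 to 5 among the 3 media. Over all genes the same fits gave 2757 to 4487 calls against inosine, 2677 to 4879 against glucose, 1 to 7 in inosine against glucose and 2105 to 4285 among the 3 media, and hypoxanthine library 3 was the one left out at 2757, 2677 and 2105, with 2427 among the media without hypoxanthine library 1. Same-numbered libraries did not all deviate together (r of -0.270 to 0.635), so they share a number and not a stated origin. With the library number as a replicate block, 4396 genes were called against inosine, 4251 against glucose and 1 in inosine against glucose, and Cdkn1b was called against glucose (limma adjusted p = 0.0499). In the 6 libraries of hypoxanthine and glucose with a replicate block, 2110 genes and 0 of the 10 were called. The limma adjusted p was then 0.0545 for Ccnd2, 0.0627 for Ccnd3, 0.0701 for Ccne1 and 0.0814 for Cdkn2c. This fit has fewer samples and fewer degrees of freedom than the main one. Without the block, these 6 libraries gave 4571 genes. The 6 libraries of hypoxanthine and inosine with a block gave 3924 genes and the same 4 of the 10. Why these fits differ was not tested. Against glucose the 4 genes were called in the other 17 settings. In inosine against glucose, 0 genes were called with a minimum mean of 1 FPKM, limma voom, no trend or robust setting, and 6 libraries with or without a block, and 1 without both libraries of highest mitochondrial share. Cdkn1b was also called against glucose with a minimum mean of 1 FPKM (limma adjusted p = 0.0453), with 6 libraries (0.0374) and without inosine library 2 (0.0357), and Cdkn2d without trend or robust settings (0.0340). Of the 10 genes, Cdkn2c, Ccne2 and Cdkn1b rested on the fewest reads, with as few as 599, 909 and 1165 in a library.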

Other observations

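Cyclin-dependent kinases that act in transcription and not in the cell cycle were set beside the 10 genes. Of 11 such kinases and cyclins, 2 were higher and 1 lower with hypoxanthine than with inosine, with a median log2 difference of 0.01. That is 27.3% called, beside 32.9% of genes averaging 1 FPKM or more. Over the 18 other settings 2 were higher and 1 to 2 lower. The lower count was 2 in 6 of them, including those without inosine library 1 or 2. The paralogs Cdk8 and Cdk19, which occupy the same place in the Mediator kinase module, went in opposite directions. Cdk19 went from 3.46 ± 0.121 to 6.49 ± 0.293 FPKM (SD, n = 3 each; limma adjusted p = 0.000286), and Cdk8 from 22.3 ± 1.58 to 16.9 ± 1.05 FPKM (SD, n = 3 each; limma adjusted p = 0.00841). Cdk9 and Ccnl2, the highest of the list beside Cdk8, had log2 differences of -0.24 and 0.18 and were not called. In inosine against glucose 0 of the 11 were called.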
